A study of Homo sapiens with 4 samples.

Results

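The distal long arm of chromosome 8 from 117.0 to 145.8 Mb (hg19), a stretch of 28.8 Mb with the MYC and PVT1 genes near its middle, was one of the regions most densely covered by H3K9me3 peaks in U2OS cells. Its members were all broad peaks with at least 1 bp between these positions, 1761 of 326674 peaks in list 1 and 2174 of 264919 peaks in list 2, counted on chromosomes 1 to 22 and X. U2OS is an established human osteosarcoma line, and every sample also bears the name KRAB-IDR3-TCF3, which the labels leave unexplained. The study had 2 samples precipitated with an Abcam antibody against H3K9me3 and 2 input samples without antibody, all from formaldehyde-fixed cells, and its title concerns the local density of the mark and genomic contacts held by HP1a condensates. The labels of the antibody samples name list 2 and those of the inputs name list 1, yet each peak of either list carries a name that begins with IP. Neither list was given to a group for that reason, they are not set against each other as antibody and input, and no value has a replicate error. The depth behind the lists is unknown.

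H3K9me3 is a mark of heterochromatin that is bound by HP1 proteins, and it is usually sparse over active genes. MYC encodes a transcription factor that drives growth in many tumours, and PVT1 is a long noncoding RNA gene beside it. Both lie in a gene-poor part of the long arm that holds many distant regulatory elements. The bands further on carry large neuronal and collagen genes, and the end of the arm is packed with short genes.

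The domain was made of fewer and wider peaks than the rest of the genome, and these covered most of it. The covered share, which is the percentage of base pairs under a peak, was 81.3% in the domain against 47.7% in the rest of the genome in list 1, and 66.2% against 26.6% in list 2. Stretches of at least 1 Mb without a peak in either list were taken out of the rest. The ratio of the domain to the rest was 1.70 in list 1 and 2.49 in list 2. List 1 holds weaker peaks than list 2, and among its peaks within the p range of list 2 (−log10 p from 1.58) the ratio was 3.65 (72.7% against 19.9%). The rest of chromosome 8 was covered 54.9% in list 1 and 30.9% in list 2. The region was chosen with earlier results of these data known, so its high coverage is a description and was not tested. Coverage was not corrected for DNA copy number, and its part in these values was not tested.

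No stretch of equal length outside the domain reached these shares. Among 23440 overlapping stretches of 28.8 Mb that started every 100 kb outside the domain, 0 were covered as much in either list. The domain and its length were chosen with earlier results of these data known. The count is therefore a description and not a test. Here peak-free stretches of at least 1 Mb were kept and counted as uncovered, which lowers the share of any stretch that holds one. The highest was chromosome 5 from 1.9 to 30.7 Mb, at 76.1% in list 1 and 55.5% in list 2. Shorter stretches elsewhere were denser than the 8q domain as a whole. The 4 Mb of chromosome 10 from 106 to 110 Mb were covered 93.2% and 84.1%, and the 7 Mb of chromosome 5 from 2 to 9 Mb 87.8% and 75.3%. The densest segment of the 8q domain, from 139.1 to 141.3 Mb, was covered 95.4% and 86.4%. It was picked as the highest and is shorter than both stretches, so these shares are not a like comparison. Its median bins of 100 kb were covered 96.4% and 89.4%. Those of the chromosome 10 stretch were covered 95.3% and 87.1%, and those of the chromosome 5 stretch 92.2% and 79.0%.

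In bins of 100 kb, 192 of the 288 bins of the domain (66.7%) were covered at least 60% in both lists, against 2548 of 28099 bins elsewhere (9.07%). Over all 28387 bins that share was 9.65%. In list 1 alone 243 bins reached 60% and 201 reached 80%, against 35.7% and 12.6% of all bins. In list 2 alone 192 bins reached 60%, against 9.66% of all bins, and 118 reached 80%. The compared stretches had higher shares of bins at 60% or more. These were 97.5% in each list on chromosome 10, and 94.3% in list 1 and 87.1% in list 2 on chromosome 5. At a limit of 80% in both lists the domain held 118 bins (41.0%), against 1.13% of bins in the rest of chromosome 8 and 2.48% of all bins. The domain made up 1.01% of the bins of the genome. By length, 1.71% of the base pairs under peaks of list 1 and 2.49% of those under peaks of list 2 lay there.

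**Figure D1:**
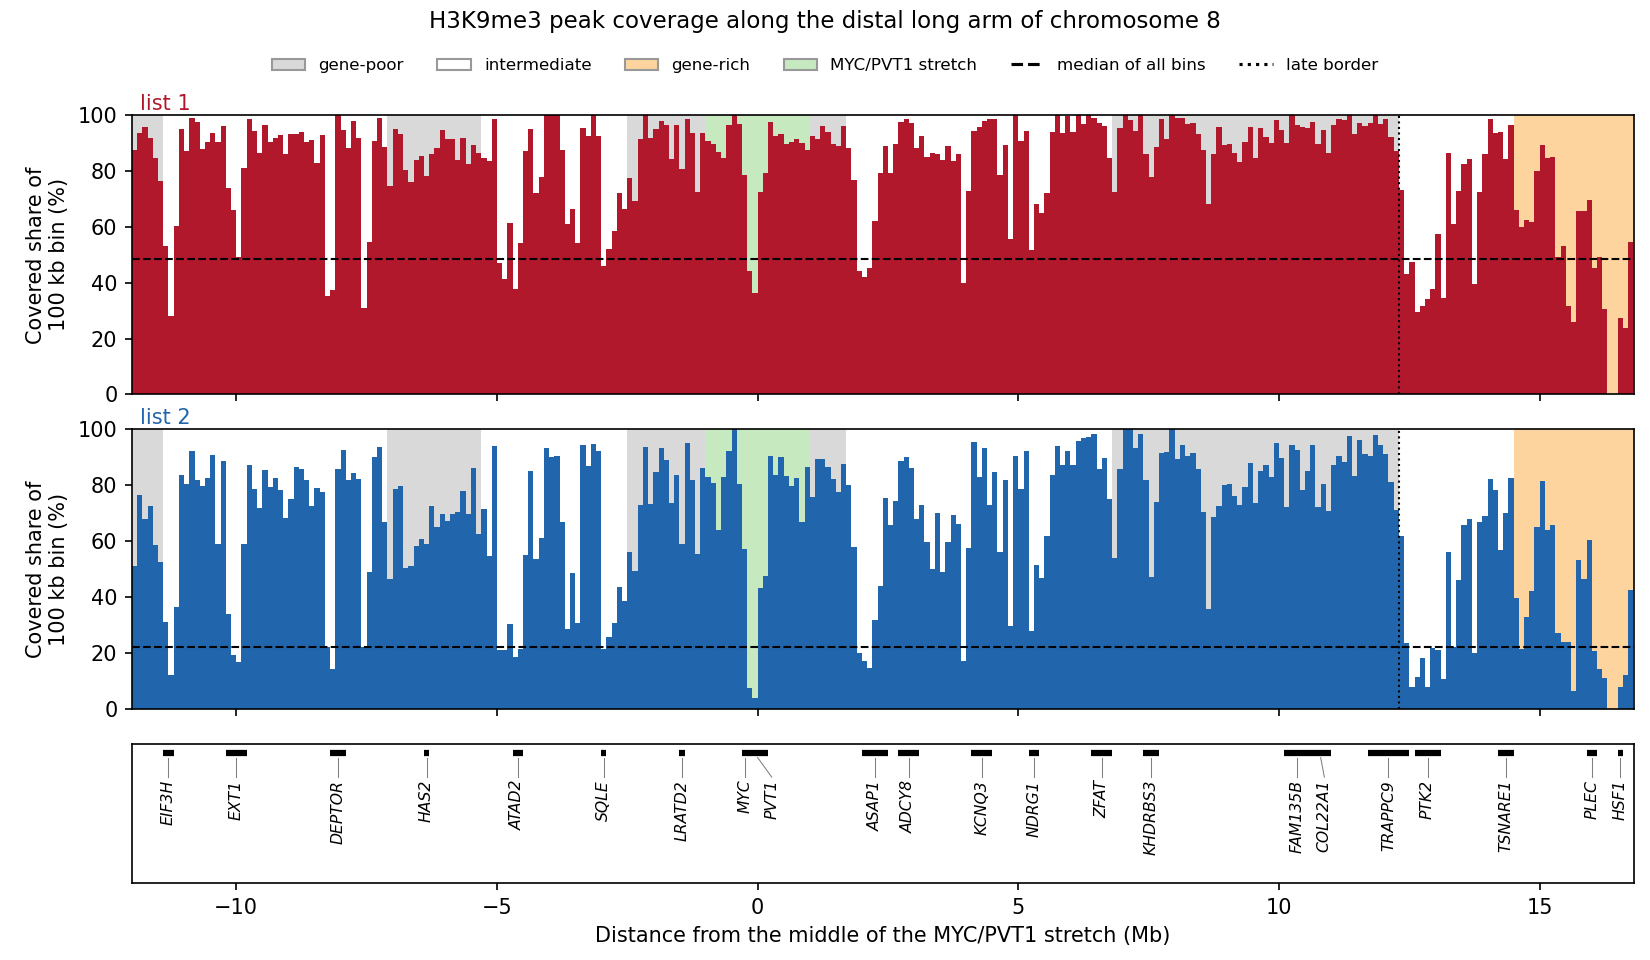
Covered share of each 100 kb bin (%) in list 1 (top) and list 2 (middle) against the distance from the middle of the MYC/PVT1 stretch (Mb), with landmark genes below. Background shades mark the gene content of the segments, the dashed line is the median of all bins of the genome (48.6% in list 1 and 21.99% in list 2) and the dotted line the border at 141.3 Mb. Most bins stand far above the median, with narrow troughs that sit at the same places in both lists.

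Peaks of the domain were wide. The median width was 3447 bp in the domain against 1969 bp elsewhere in list 1, and 3444 bp against 1557 bp in list 2. Wide peaks were not particular to the domain. Medians were larger from 106 to 110 Mb on chromosome 10 (13783.5 bp in list 1 and 7794 bp in list 2). The same held from 2 to 9 Mb on chromosome 5 (9031 bp and 5766.5 bp). Peaks of at least 10 kb made up 29.2% of the domain's peaks against 9.51% elsewhere in list 1, and 25.1% against 4.28% in list 2. They held 85.0% of the length of the domain's peaks in list 1 and 74.3% in list 2. Their share of peaks was 54.9% and 41.2% in the chromosome 10 stretch, and 47.4% and 34.0% in that of chromosome 5. The density of peaks was lower in the domain, at 61.1 peaks per Mb against 116 elsewhere in list 1 and 75.5 against 93.5 in list 2. The authors' fold enrichment of single peaks was somewhat higher in the domain. Its median was 1.81 in the domain against 1.64 elsewhere in list 1, and 2.35 against 2.12 in list 2. The median fold was 2.02 and 2.41 in the chromosome 10 stretch, and 1.99 and 2.39 in that of chromosome 5. The lowest fold was 1.44 in list 1, held by 59272 peaks, and 1.90 in list 2, held by 41306 peaks. With such a floor, differences in fold are not comparable with those in width.

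**Figure D2:**
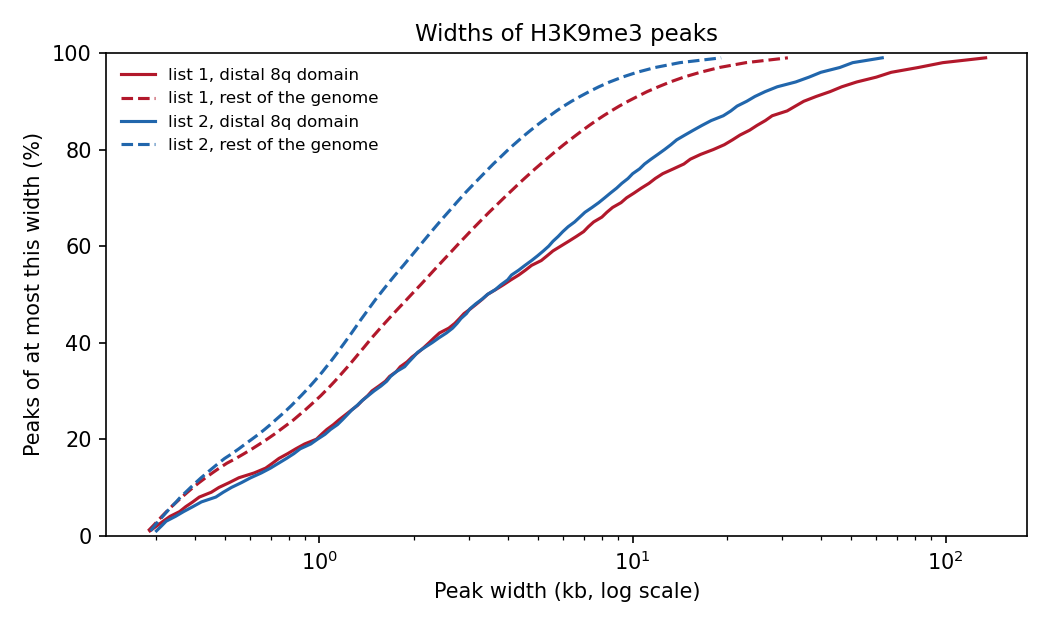
Percentage of peaks at or under each width (kb, log scale) for the domain (solid) and the rest of the genome (dashed), in list 1 and list 2, from the 1st to the 99th percentile. Both solid curves lie to the right of the dashed ones, with medians of 3447 and 3444 bp against 1969 and 1557 bp.

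Peaks less than 10 kb apart were joined into 53 blocks in list 1 and 186 blocks in list 2. Blocks of at least 100 kb took up 93.9% of the domain against 62.0% of the rest of the genome in list 1, and 75.3% against 26.3% in list 2. The shares of the domain count only the parts of blocks inside it. Whole blocks, as in the rest of the genome, gave 96.6% and 77.1%. In list 1, 9 blocks exceeded 1 Mb. The longest, from 135706349 to 141470806, spanned 5.76 Mb and ran from the ZFAT bins into those of TRAPPC9. It was followed by one of 4.04 Mb from 128939370 to 132976270 and one of 2.80 Mb from 126132739 to 128929232. In list 2, 6 blocks exceeded 1 Mb, and the longest spanned 2.42 Mb from 138865099 to 141286603. The rest of the genome held 293 such blocks in list 1, the longest of 5.28 Mb, and 32 in list 2, the longest of 4.196 Mb. The peaks of list 1 within the p range of list 2 formed 187 blocks in the domain, and 69.2% of it lay in blocks of at least 100 kb.

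The lists shared 18.6 Mb, or 79.3% of the base pairs under list 1 and 97.5% of those under list 2. In the rest of the genome the same shares were 48.96% and 87.9%. Such shares rise with coverage itself, which was 66.2% in list 2 and 81.3% in list 1 in the domain, against 26.6% and 47.7% elsewhere, so they do not show closer agreement of the lists in the domain. Of the peaks of list 1 in the domain 1118 (63.5%, Wilson 95% interval 61.2 to 65.7%) touched a peak of list 2, and 2100 of those of list 2 (96.6%, 95.7 to 97.3%) touched one of list 1. In the rest of the genome 50.8% of the peaks of list 1 and 90.1% of those of list 2 did so. The intervals cover counting error only. Across the 288 bins, covered shares of the lists had a Spearman's rho of 0.928, against 0.953 across the 28099 bins elsewhere. These are descriptions over neighbouring bins of 1 cell line. Only 17.1% of the domain lay outside the peaks of both lists.

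The 28.8 Mb were divided into 12 segments by their protein-coding genes. Segment borders and gene positions were placed at 100 kb precision from general knowledge of hg19, since RefSeq genes were at hand on GRCh38.p14 alone. The table gave the order of the genes and their number per segment. The order of all 45 landmark genes was the same in the table. Segments with under 3 protein-coding genes per Mb are called gene-poor and those with at least 10 gene-rich, and the rest are intermediate. The MYC/PVT1 stretch from 128.0 to 130.0 Mb, with 2 protein-coding genes, met the gene-poor limit at 1 per Mb but was kept apart.

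Gene-poor parts were covered most evenly. Their 101 bins averaged 91.0% ± 7.46 (SD over bins) in list 1 and 78.4% ± 14.5 in list 2, and 86 of them were covered at least 60% in both lists. None of the 101 bins lay below the median of all bins in both lists, a state found in 45.4% of bins over the genome. The MYC/PVT1 stretch, not counted among them, had 2 such bins of 20. The 144 bins of the intermediate parts averaged 78.8% ± 20.7 and 62.3% ± 27.2, with 17 bins below the median in both lists. The 23 gene-rich bins, all from 143.5 Mb on, averaged 51.4% ± 25.2 and 33.1% ± 23.6, with 7 such bins. The ratio of the gene-poor parts to the gene-rich part was 1.77 in list 1 and 2.37 in list 2. It was 1.12 in list 1 and 1.20 in list 2 when the intermediate parts before 141.3 Mb took the place of the gene-rich part. Over the 12 segments, rho of the covered share with genes per Mb was −0.767 in list 1 and −0.515 in list 2, a description with no p since the segments share libraries and were cut by hand. Without the gene-rich segment rho was −0.697 and −0.369.

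**Figure D3:**
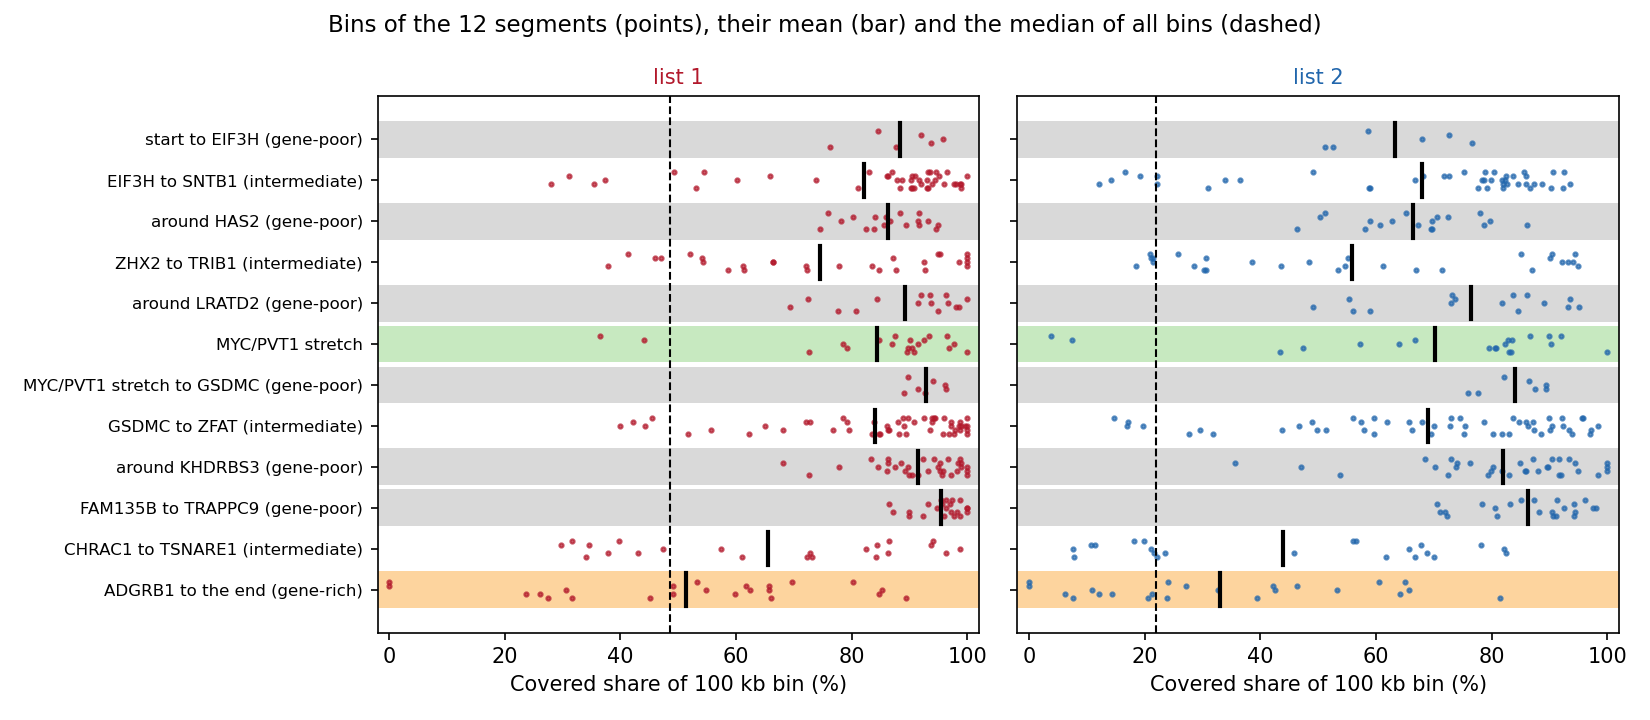
Covered share of each 100 kb bin (points, %) by segment, from the start of the domain (top) to its end (bottom), in list 1 and list 2. Black bars are segment means and the dashed line is the median of all bins. The gene-poor segments (grey) have no bin under the dashed line. Low bins gather in the intermediate (white) and gene-rich (orange) segments, and 2 lie in the MYC/PVT1 stretch (green).

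Among the gene-poor segments, coverage was highest in the last one. The 0.6 Mb before EIF3H were covered 88.4% in list 1 and 63.3% in list 2. The 1.8 Mb around HAS2, a hyaluronan synthase gene, were covered 86.3% and 66.4%, and the 1.5 Mb around LRATD2 89.3% and 76.4%. The 0.7 Mb between the MYC/PVT1 stretch and GSDMC, a gasdermin gene, were covered 92.8% and 84.1%. The 3.3 Mb around KHDRBS3, which encodes an RNA-binding protein, were covered 91.4% and 82.1%. The 2.2 Mb from FAM135B through the collagen gene COL22A1 and the potassium channel gene KCNK9 to TRAPPC9 were covered 95.4% ± 3.99 and 86.4% ± 8.97, and their lowest bins still reached 86.5% and 70.6%. From 137.7 to 141.4 Mb, 37 bins in a row were covered at least 60% in both lists, the longest such run of the domain. The widest peak of list 2 (255 kb, from 135985348 to 136240370) and the second widest of list 1 (245 kb, from 135919442 to 136164860) overlapped between ZFAT and KHDRBS3.

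Peaks were wider in the densest segment than in the gene-rich part. From FAM135B to TRAPPC9 the median peak was 25239 bp wide in list 1 and 8159 bp in list 2. In the gene-rich part it was 1625 bp and 1923 bp. The median fold of the authors was 2.197 and 2.422 in that densest segment and 1.668 and 2.245 in the gene-rich part. The lowest folds of the lists were 1.44 and 1.90, so differences in fold were not set against those in width. List 1 exceeded list 2 by 25.1 percentage points in the 0.6 Mb before EIF3H and by 21.6 points from CHRAC1 to TSNARE1, against 8.69 points before GSDMC and 9.01 points from FAM135B to TRAPPC9.

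The intermediate segments held most of the low bins up to 141.3 Mb. The 4.3 Mb from EIF3H to SNTB1, with 20 protein-coding genes, were covered 82.1% ± 20.3 and 68.0% ± 25.3. The 5.1 Mb from GSDMC to ZFAT, with 17 genes, were covered 84.1% ± 16.8 and 68.9% ± 23.9. The 2.8 Mb from ZHX2 to TRIB1, with 25 genes, had the lowest mean of these. The 2.2 Mb from CHRAC1 to TSNARE1, beyond the border at 141.3 Mb, had 10 genes and were covered 65.5% ± 24.3 and 43.9% ± 27.2. Their gene density of 4.55 per Mb was close to the 4.65 per Mb from EIF3H to SNTB1.

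The MYC/PVT1 stretch had a mean coverage slightly above that of the rest of the domain and held 1 deep trough. Its 20 bins averaged 84.5% ± 16.6 against 81.0% ± 20.5 for the other 268 bins in list 1, and 70.3% ± 26.5 against 65.9% ± 26.0 in list 2. The ratios of these means were 1.04 and 1.07, and 0.977 and 0.917 for the middle 1 Mb of the stretch, so their direction turned with the extent chosen. Of the 20 bins, 15 were covered at least 60% in both lists, 3 fell short of that in list 2 alone, and 2 lay below the median of all bins in both lists.

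The trough lay over the first bins of PVT1. From 128.5 to 128.6 Mb, next to the bin of the retrogene POU5F1B, both lists covered 100% of the bin. The following bin, the last before MYC, was covered 96.8% in list 1 and 80.6% in list 2. The MYC bin from 128.7 to 128.8 Mb was covered 78.4% and 57.2%. The first PVT1 bin was covered 44.1% and 7.43%, and the next one 36.5% and 3.85%. Coverage then climbed through 72.6% and 43.3% and through 79.2% and 47.4% to 97.7% and 90.4% in the bin from 129.2 to 129.3 Mb. Both lists had their lowest bin of the stretch at that second PVT1 bin, and the drop was deeper in list 2.

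In list 2 the trough separated blocks of 910 kb (127892953 to 128803009) and 927 kb (129116004 to 130042838). The 313 kb between them lay inside the 4 bins in which PVT1 was placed. Peaks covered 17.7% of these 313 kb in list 2, against 78.5% of an equal length before and 79.1% after, and the 27 peaks there had a median width of 846 bp. In list 1 the same 313 kb were covered 53.1%, against 91.3% before and 90.4% after, by 46 peaks with a median width of 2214 bp. The blocks of list 1 were parted there by only 10.1 kb. In list 2 the 313 kb held 7 short blocks, and its strongest peak there ran from 129056713 to 129069823 (13.1 kb) with a fold of 3.42. A run of 10 kb bins without any base under a peak of list 2, 40 kb long, lay from 128910001 to 128950000, whereas list 1 had no empty 10 kb bin in the whole MYC/PVT1 stretch. The median fold inside was 2.08 in list 2, against 2.37 before and 2.79 after, and 1.66 in list 1, against 1.96 and 2.56. The extent of these 313 kb was taken from list 2 after its values had been seen.

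**Figure D4:**
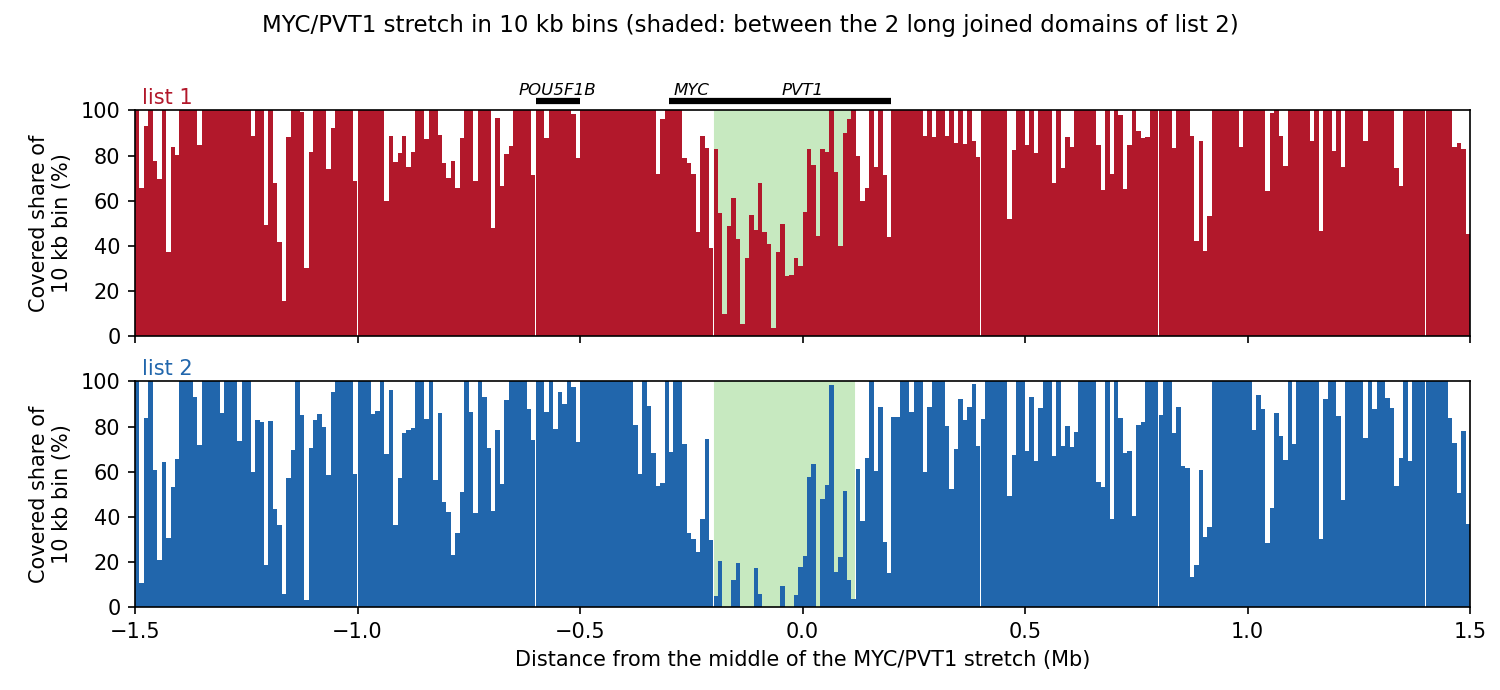
Covered share of 10 kb bins (%) within 1.5 Mb of the middle of the MYC/PVT1 stretch in list 1 (top) and list 2 (bottom), with the 100 kb bins of POU5F1B, MYC and PVT1 as black bars. The shaded 313 kb lie between the long blocks of list 2, where coverage was 53.1% in list 1 and 17.7% in list 2.

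One of the strongest peaks of the domain in list 1 lay in the MYC bin. It ran from 128747118 to 128754570 (7.45 kb) with a fold of 3.45 and ranked 3 of 1761 by fold. List 2 had 1 peak there, from 128750943 to 128753279 (2.34 kb), with a fold of 2.42 and rank 957 of 2174. The lists thus placed a peak at the same site and ranked it very differently.

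Between the gene-poor parts, most troughs were only 1 to 3 bins wide. The domain had 14 runs of bins below the median of all bins in both lists, 26 bins in all (9.03% of its bins, against the 45.4% of all bins), and none was longer than 0.5 Mb. Runs depend on that limit. Bins from 120.7 to 120.8 Mb (35.35% and 22.08%) and from 121.4 to 121.5 Mb (31.1% and 22.12%) were not counted. They lay just above the list 2 median of 21.99%. At the start of the domain, the trough from 117.7 to 117.8 Mb (28.0% in list 1 and 12.1% in list 2) lay in the second bin of EIF3H, which encodes a subunit of a translation initiation factor. The adjoining bin of RAD21, a cohesin subunit, was covered 60.3% and 36.5%. Next to it, the bins of SLC30A8, the zinc transporter of pancreatic beta cells, were covered 93.7% and 85.5%. At EXT1, an enzyme of heparan sulfate synthesis, the bins averaged 67.5% and 32.2%, between SLC30A8 and SAMD12 (93.3% and 80.5%).

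A trough at 120.8 to 120.9 Mb (37.3% and 14.2%) lay where the table lists TAF2, DSCC1 and DEPTOR between ENPP2 and COL14A1. TAF2 encodes a subunit of the general transcription factor TFIID. A peak of 194 kb in list 1, from 120899889 to 121094048, began at its edge and ran through the other bins of DEPTOR, an inhibitor of mTOR. The bins of ENPP2 (autotaxin) were covered 87.97% and 78.3%, and those of the collagen gene COL14A1 92.7% and 82.9%. TNFRSF11B, which encodes the bone-protecting decoy receptor osteoprotegerin, had 86.1% and 68.2%. SNTB1, a syntrophin of the dystrophin complex, had 83.2% and 74.9%.

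The segment from ZHX2 to TRIB1 alternated sharply, with SDs over bins of 20.5 in list 1 and 28.6 in list 2 around means of 74.5% and 55.9%. Bins from 124.0 to 124.2 Mb were covered 44.1% and 21.0%, where the table lists DERL1, TBC1D31, FAM83A, C8orf76 and ZHX1 between ZHX2 and ATAD2. The bins of ATAD2, an AAA ATPase with a bromodomain, had 46.1% and 19.9%. The bin of SQLE, an enzyme of cholesterol synthesis, had 46.0% and 21.4%. Less than 1 Mb further back, list 1 had its widest peak of the domain, 333 kb from 124877595 to 125210458, where the table lists FER1L6 and other genes between FBXO32 and MTSS1. The homeobox gene ZHX2 itself had 88.9% and 73.4%, and the muscle ubiquitin ligase gene FBXO32 87.2% and 55.1%. Bins of MTSS1, an actin-binding protein, were covered 80.7% and 70.7%, and the 3 bins of NSMCE2, a SUMO ligase of the SMC5/6 complex, 60.9% and 33.3%. TRIB1, a pseudokinase gene at the end of the segment, had 66.4% and 38.6%.

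Beyond the MYC/PVT1 stretch the same alternation returned. The trough from 130.9 to 131.2 Mb (44.0% and 17.2%) lay over the start of the ASAP1 bins and the neighbouring bin, with CYRIB listed before ASAP1. The bins of ADCY8, an adenylyl cyclase of the brain, had 95.4% and 83.2%. The single bin from 132.9 to 133.0 Mb had 39.9% and 17.0%, where the table lists EFR3A, OC90 and HHLA1 between ADCY8 and KCNQ3. KCNQ3, a neuronal potassium channel gene, had 96.7% and 86.2%. Thyroglobulin (TG), the thyroid hormone precursor, had 85.2% and 72.7%, and the stress-responsive gene NDRG1 next to it had 59.98% and 39.6%. From 134.6 to 135.7 Mb, between ST3GAL1 and the last bin of the zinc finger gene ZFAT, 11 bins in a row were covered at least 80% in both lists.

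**Figure D5:**
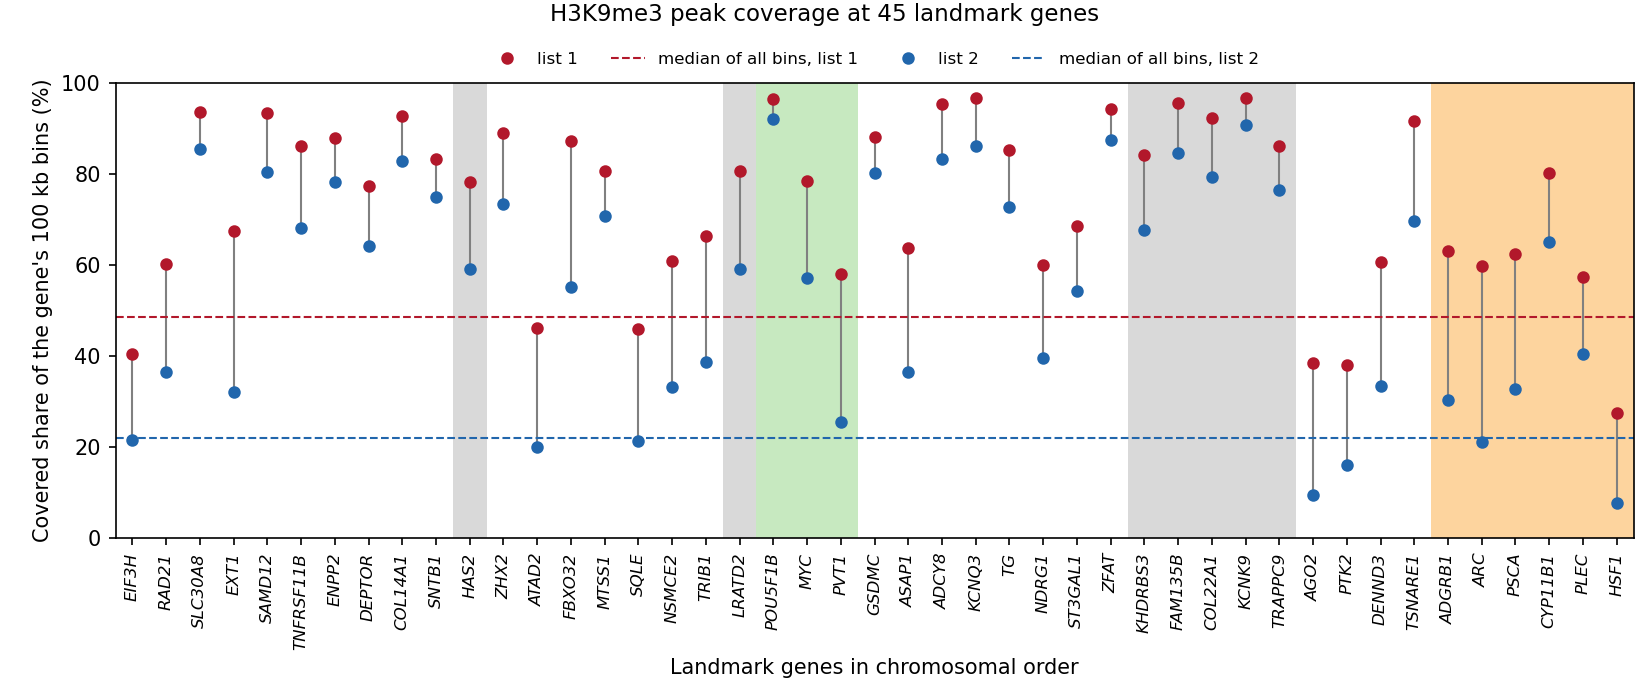
Covered share of the 100 kb bins of each of the 45 landmark genes (%) in list 1 and list 2, in chromosomal order, with the medians of all bins as dashed lines. Shading gives the segment class as in the profile (grey gene-poor, white intermediate, green MYC/PVT1 stretch, orange gene-rich). Genes range from 27.5% and 7.63% at HSF1 to over 90% at POU5F1B and KCNK9 in both lists.

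Over the 45 landmark genes, 22 had bins covered at least 60% in both lists, 6 lay below the median of all bins in both lists and 17 lay between. For single bins over the genome the shares at 60% or more and below both medians were 9.65% and 45.4%. All landmarks lie in the domain, where these shares of single bins were 66.7% and 9.03%. The landmarks were thus not more covered than the domain around them. By the lower of the lists, the best covered were POU5F1B (96.5% and 92.1%), KCNK9 (96.6% and 90.8%), ZFAT (94.2% and 87.4%), KCNQ3 and SLC30A8. The least covered were the heat shock transcription factor gene HSF1 (27.5% and 7.63%), the Argonaute gene AGO2 (38.5% and 9.52%), the focal adhesion kinase gene PTK2 (38.1% and 16.0%), ATAD2 and the synaptic gene ARC (59.8% and 21.2%). Of these 5, ARC lay above the median in list 1, and the remaining genes below both medians were EIF3H and SQLE. Genes were judged by whole bins, so values of short genes include their neighbours.

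Coverage fell abruptly near 141.3 Mb, inside the bins of TRAPPC9, which encodes a subunit of a vesicle trafficking complex. The 1 Mb beyond this border was covered 47.5% in list 1, against 95.9% in the 1 Mb before it, a difference of −48.4 percentage points. In list 2 it was 24.0% against 89.4%, a difference of −65.4 points. Of 27478 borders between adjoining 1 Mb stretches over the genome, 6 (0.0218%) had a fall at least as large in both lists, this one included. Borders lay every 100 kb, so neighbouring ones share most of their sequence and the 6 are not separate falls. Only falls towards higher positions were counted, and equally steep rises were not. The border at 141.3 Mb was named with earlier results known. At the border 100 kb before it, also among the 6, the fall was slightly larger, at −49.4 and −65.6 points. Bin by bin, coverage went through 87.1% and 71.1% before the border, 73.1% and 61.7% just beyond it, and 43.0% and 23.6% in the last TRAPPC9 bin. The longest block of list 1 ended in that bin, and that of list 2 ended in the last bin before the border.

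The 4.5 Mb beyond 141.3 Mb were not uniform. The 24.3 Mb before the border averaged 85.5% ± 15.8, against 58.3% ± 25.5 beyond it in list 1, and 71.3% ± 22.7 against 38.4% ± 25.7 in list 2, with ratios of 1.47 and 1.86. Bins from 141.5 to 142.0 Mb, at AGO2 and most of PTK2, were covered 36.1% and 13.3%, one of the longest low runs of the domain. Coverage returned from 142.8 to 143.2 Mb (87.7% and 74.0%) and was still 91.5% and 69.7% in the bins of TSNARE1. It was lower again at ADGRB1, an adhesion receptor gene of the brain (63.0% and 30.4%), at ARC and at PSCA (62.4% and 32.7%). The bin of CYP11B1, a cortisol synthesis enzyme of the adrenal gland, was covered 80.2% and 65.0%, and those of PLEC (plectin) 57.4% and 40.5%.

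The last low run, from 145.2 to 145.7 Mb with HSF1, was covered 16.4% and 6.10%. It held a peak-free stretch of 217 kb in list 1 (145284800 to 145501607) and 236 kb in list 2 (145266955 to 145502832). A second one, between DENND3 and TSNARE1, measured 79.97 kb in list 1 (from 142745733) and 80.2 kb in list 2 (from 142745560). No hg19 sequence was used here, so unsequenced gaps were not located. Without the 2 bins that had no peak in either list, the gene-rich part was covered 56.3% and 36.2%.

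The borders of the region itself were not sharp at its start. The first 1 Mb was covered 76.7% and 54.3%, against 72.0% and 48.98% in the 1 Mb before it. Its last 1 Mb was covered 36.6% and 21.5%, against 84.5% and 73.5% in the 5 full bins that follow on the chromosome.

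Peaks of high confidence were few, and they lay in 4 of the 12 segments in list 1 and in 11 in list 2. At a −log10 q of 2 or more there were 5 peaks of the domain in list 1 (0.284%, against 0.0406% elsewhere) and 56 in list 2 (2.58%, against 0.234%). The 56 were 8.35% of all such peaks of list 2. Of them 11 lay from GSDMC to ZFAT, 11 in the gene-rich part, 10 from ZHX2 to TRIB1, 7 from FAM135B to TRAPPC9 and 2 in the MYC/PVT1 stretch. The highest fold of the domain in both lists lay in the bins of NSMCE2, at 4.47 from 126132739 to 126140725 in list 1 and at 5.59 from 126136281 to 126140753 in list 2. The next in list 1 ran from 125985986 to 126009936 (3.47). The next in list 2 were 4.47 from 123694512 to 123698714 and 4.25 from 124450239 to 124455034, at the edge of ZHX2 and in the bins of ATAD2. With peaks of this confidence alone, the covered share before 141.3 Mb was 0.489 times that beyond it in list 2, the opposite direction to that with all peaks. In list 1 only 1 of the 5 lay beyond the border, from 144724339 to 144757943, and no direction was read from it.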

How the data were processed

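Chromatin immunoprecipitation against H3K9me3 and input libraries came from U2OS cells, with 2 antibody samples and 2 inputs, and nothing in the labels says whether samples of a group were separate cultures. The submitters' processing notes name hg19 and, without roles, the peak caller MACS2 2.2.7.1, the aligner Bowtie2 2.5.0, Trim Galore 0.6.7 and bcl2fastq 2.17. The cutoff, control library and any pooling behind the peaks are stated neither in the labels nor in the notes. What the authors deposited are 2 broad peak lists without headers. The fold enrichment of each peak, a ratio over the peak caller's background, and its −log10 p and −log10 q are the authors' deposited values. Reads were not counted in them, and depth cannot be stated.

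From the peaks, covered shares in bins of 100 kb, blocks of peaks under 10 kb apart and overlaps of at least 1 bp were computed. Background bins exclude stretches of at least 1 Mb without peaks. Peaks were assigned to a segment by their middle. These steps were checked on 20 simulated peak sets. The landmark genes are a list of 45, and those named are MYC, PVT1, segment borders, the 5 best and 5 least covered and those at the parts told apart, with neighbours from the table of RefSeq genes on GRCh38.p14. The 5 widest and 5 strongest peaks per list were considered. The region, members and lists were chosen with earlier results of these data known. No test across samples was possible. Alternatives changed the peak threshold, the borders, the bin size, the joining distance and the overlap. Scripts ran under Python 3.11.15 with pandas 2.3.3 and numpy 2.4.6, Wilson intervals came from scipy 1.17.1, and plots from matplotlib 3.10.9.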

Additional observations from a re-analysis of the deposited data

How the results depend on the processing

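No paired analysis was possible because neither list belongs to a numbered replicate. Values are for list 1 and then list 2, and a value counts as moved when it left the Wilson 95% interval over bins or peaks, or changed by over 1.5 times for ratios and numbers of blocks. Neighbouring bins and peaks are not independent, so these limits are a yardstick only and do not measure the spread of a value. Among the results named in this paragraph 38 values under an alternative stayed within these limits, 35 moved and 7 changed direction. The 7 were the stretch over the rest of the domain in its middle 1 Mb (0.977 and 0.917) and, with −log10 q of at least 2, that ratio in list 2 (0.205), the ratio before over beyond 141.3 Mb (0.232 and 0.489) and gene-poor over gene-rich (0 and 0.464). The values of list 1 there rest on 5 peaks, 1 of them beyond 141.3 Mb, and show no direction. With that threshold the domain was covered 0.263% and 3.88%, and 0% and 1.04% of its bins reached 60%. The domain over the rest of the genome was then 5.45 and 23.3, and over the rest of chromosome 8 1.14 and 13.6. With both lists cut at that threshold, 4 of 5 peaks of list 1 (80%) and 4 of 56 of list 2 (7.14%) overlapped the other list. The share of list 2 was limited by the 5 peaks left in list 1 and does not measure agreement. List 1 within the p range of list 2 covered 72.7%, 3.65 times the rest, with 72.2% of bins at 60% or more, 187 blocks, 69.2% of the domain in blocks of at least 100 kb, and 94.5% and 76.7% of peaks overlapping. With base pairs in both lists only, list 1 covered 64.5%, 2.76 times the rest, with 64.6% of bins at 60% or more. With folds above the median of the list 79.2% of bins in list 1 reached 60%. Bins of 500 kb gave 91.2% and 71.9%, and bins of 1 Mb gave 96.4% in list 1. Joining at 3 kb gave 510 and 856 blocks, with 63.1% and 30.7% of the domain in long ones, and joining at 25 kb gave 5 and 47 blocks with 98.5% and 90.2%. With 50% of each peak shared, 30.2% and 24.5% of peaks overlapped. Chosen after seeing the data were the intermediate parts in place of the gene-rich one (1.12 and 1.20), the 1 Mb on either side of 141.3 Mb (3.73 in list 2), the empty bins left out and the alternatives to the ratio of the domain to the rest. The cause of these changes was not tested beyond the construction of each alternative. The depth is unknown, and few peaks passed the strict q.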
